A study of Homo sapiens with 24 samples.

Results

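The 9 genes described here encode ligands on or released from the cell surface that T cells, natural killer (NK) cells and macrophages read when they meet another cell. They were chosen by name: the adhesion molecules ICAM1 and CD58, the immune checkpoint ligands CD274 (PD-L1), CD276 (B7-H3), LGALS9 (galectin-9) and CD47, the poliovirus receptor PVR (CD155), and the stress ligands MICA and MICB. All 9 had a row among the 26475 gene symbols of the count tables, and 7 of them had enough reads to be among the 11676 genes tested over all libraries. CD274 and LGALS9 did not, and their reads are given as counts.

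The RNA came from HepG2, a human hepatocellular carcinoma cell line, and was sequenced in 24 libraries, 3 in each of 8 treatment groups. The 4 groups without interferon gamma (IFNγ) received DMSO as the solvent control, ABBV-075 at 50 nM, ABBV-744 at 50 nM or ABBV-744 at 500 nM. The other 4 groups received IFNγ alone or IFNγ together with one of the same 3 inhibitor treatments. The study's methods give 12 h for ABBV-075, and name DMSO beside treatments of 24 h, so the DMSO and ABBV-075 libraries may differ in time as well as in treatment. The dose of IFNγ and the times of the groups with IFNγ or ABBV-744 are not given in the sources used here. All libraries are from 1 cell line, and no label names added immune cells. The methods call the DMSO and ABBV-075 samples independent experimental triplicates. For the other 6 groups nothing used here says that the 3 samples were separate cultures, so p-values there measure only the spread between these samples, which may be technical.

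ABBV-075 is an inhibitor of the bromodomain and extra-terminal (BET) proteins, which bind acetylated histones and help RNA polymerase II to elongate. ABBV-744 is a BET inhibitor selective for the second bromodomain of these proteins. IFNγ, a cytokine of T cells and NK cells, signals through JAK kinases to transcription at GAS elements in promoters and raises IRF1, a transcription factor that binds further promoters. CD274, ICAM1 and the antigen presentation genes are among its textbook targets, and hepatocytes and hepatocellular carcinoma cells carry the receptor.

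Reads counted on genes numbered from 2978982 to 4304103 per library (median 3462418.5), which was 11.95% to 16.8% of the reads in a library, while 56.0% to 69.4% mapped to several places and were not counted. The hepatocyte markers fitted the label, with a summed level of 8 markers between 16317 and 24414 CPM in every library. CPM are reads scaled to the library's total on the genes tested, adjusted by a normalization factor (TMM). Of the 6 leukocyte markers, PTPRC and CD3E were at 0 and NKG7 at no more than 3 reads in every library, whereas LYZ was abundant (1190 to 1857 CPM as group means), so that the list summed to 1093 to 1876 CPM. The 4 stellate cell or fibroblast markers summed to 1.15 to 7.33 CPM with COL3A1 and DCN at 0, and the 4 endothelial markers to 0 to 2.15 CPM with KDR at 0. IRF1 lay between 10.9 and 19.1 CPM in the libraries without IFNγ and between 195 and 252 CPM in those with it. HEXIM1, a gene that BET inhibition is known to raise, was at 50.6 to 56.8 CPM with DMSO, 137 to 152 with ABBV-075, 60.3 to 68.0 and 84.3 to 93.9 with ABBV-744 at 50 and 500 nM, 44.8 to 49.3 with IFNγ, and 129 to 140, 38.7 to 55.5 and 69.4 to 73.2 with IFNγ plus ABBV-075, ABBV-744 50 nM and ABBV-744 500 nM. With IFNγ, the libraries labelled ABBV-744 50 nM therefore overlapped the IFNγ libraries in HEXIM1.

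The libraries also differed in how a gene's level moved with its GC content, the share of G and C bases in its transcript. The slope of the log2 deviation on GC content, per 10 points, was 0.03 to 0.13 with DMSO, -0.31 to 0.08 with ABBV-075, 0.22 to 0.45 and 0.10 to 0.35 with ABBV-744 at 50 and 500 nM, and 0.06 to 0.23 with IFNγ. It was -0.26 to -0.04, -0.30 to -0.27 and -0.26 to -0.09 with IFNγ plus ABBV-075, ABBV-744 50 nM and ABBV-744 500 nM. The ABBV-744 libraries thus lay on opposite sides of 0 without and with IFNγ. Among the 9 genes, CD47 (38.5%), CD274 (40.7%) and CD58 (43.0%) had the lowest GC content, MICB (50.2%), PVR (52.3%), LGALS9 (53.7%), MICA (55.0%) and ICAM1 (56.0%) lay higher, and CD276 (60%) was the highest. Every fold change of a tested gene was therefore also computed after a correction that removes this trend. The corrected value is given where it changed a member's call or moved a called value by over 1.5 times. CD274 and LGALS9 have no corrected value, so their fold changes and p-values below may carry this trend.

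In untreated levels compared per kilobase of exon, ICAM1 was the highest of the 9 in the DMSO group at 19.96 ± 1.03 CPM per kb (SD, n = 3), followed by PVR at 10.2 ± 0.61. MICB (6.65 ± 0.76), MICA (5.38 ± 0.85), CD58 (4.33 ± 1.00) and CD276 (3.67 ± 0.40) came next, and the ranges of each neighbouring pair among these 4 overlapped. CD47 was at 0.61 ± 0.08 CPM per kb, and CD274 and LGALS9 were at or near 0. With IFNγ the order changed at the top only: ICAM1 reached 58.9 ± 8.36 CPM per kb and MICB, at 14.3 ± 1.65, lay above PVR at 10.8 ± 0.64.

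**Figure D1:**
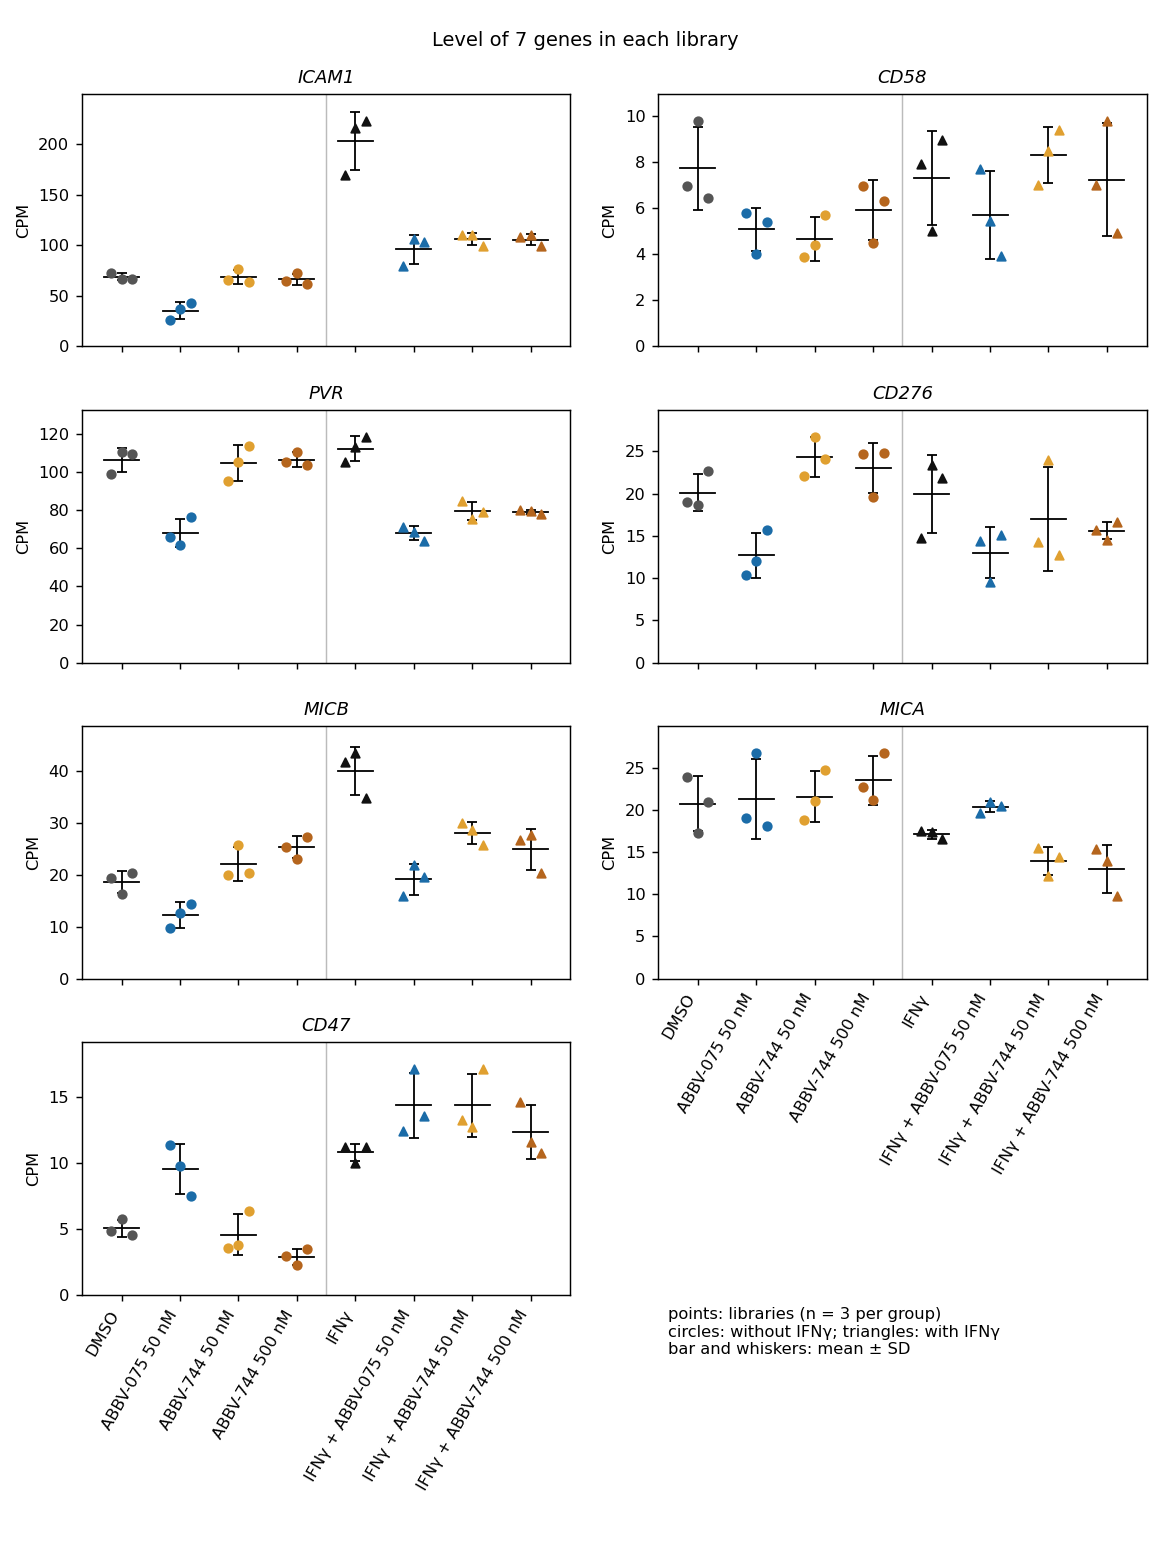
Level in CPM (reads scaled to the library's total after TMM adjustment, vertical axis, from 0) of ICAM1, CD58, PVR, CD276, MICB, MICA and CD47 in each of the 24 libraries, by treatment group, with the mean and SD of the 3 libraries of a group. ICAM1 and MICB are highest in the 3 libraries with IFNγ alone, and in all 3 groups with IFNγ plus an inhibitor they lie below those libraries without overlap.

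IFNγ alone raised ICAM1, MICB and CD47 among the 7 tested genes and lowered none. These 3 of 7 compare with 3.46% of all 11217 genes tested in that comparison, of which 2.76% were called higher and 0.695% lower, at an adjusted p of at most 0.05 in edgeR's quasi-likelihood test. ABBV-075 alone changed 5 of the 7, with CD276, PVR, ICAM1 and MICB lower and CD47 higher, where 39.3% of all genes tested were called (19.8% higher and 19.6% lower). The median log2 fold change of the 7 was -0.63 there, against 0.03 over all genes tested. ABBV-744 changed none of the 7 at 50 nM or at 500 nM, where 18.9% and 15.3% of all genes were called. The 3 inhibitor comparisons share the DMSO libraries. CPM values are relative to the other RNA counted in a library of bulk culture, in which fewer cells making a transcript and less of it per cell cannot be told apart.

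Added to IFNγ, each inhibitor lowered ICAM1, PVR and MICB relative to IFNγ alone, and ABBV-075 also lowered CD276. The count was 4 of 7 with ABBV-075, 3 of 7 with ABBV-744 50 nM and 3 of 7 with ABBV-744 500 nM. Over all genes tested, 56.6%, 51.7% and 45.7% were called in these comparisons, 28.4%, 24.3% and 22.8% as lower, which share the IFNγ libraries, so that the members' counts are to be read against these shares. Medians over the 7 were -0.62, -0.27 and -0.41, against values between -0.03 and 0 over all genes tested.

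**Figure D2:**
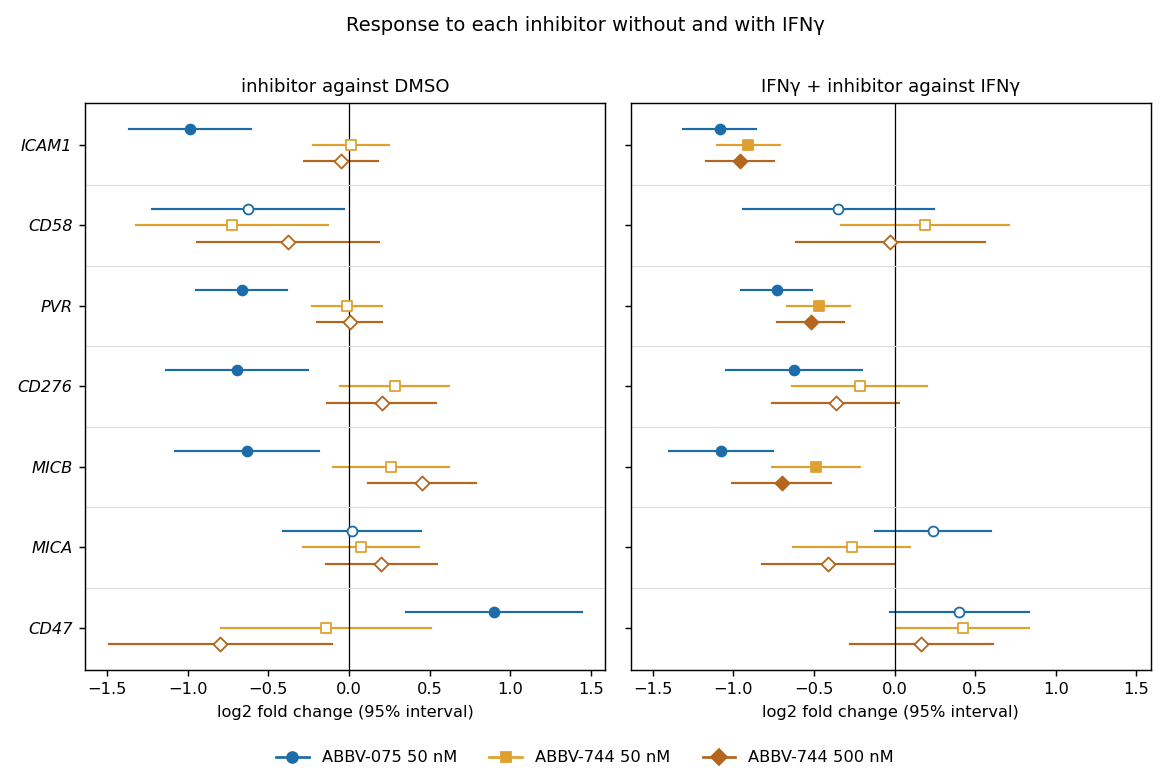
Log2 fold change (horizontal axis) with its 95% interval for each inhibitor against DMSO (left) and for IFNγ plus each inhibitor against IFNγ alone (right), for the 7 tested genes; filled symbols have an adjusted p of at most 0.05 and open symbols do not. ICAM1, PVR and MICB are filled for ABBV-075 alone on the left and for all 3 treatments on the right.

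ICAM1, the adhesion molecule that binds the integrin LFA-1 on T cells and NK cells, was called in 9 of the 14 pairwise comparisons. The gene lies at chr19:10271093-10286615 on the plus strand (GRCh38). The 223 bases before its first annotated exon are printed below from the RefSeq promoter table (GRCh38.p14, plus strand, chr19:10270870-10271092), because it holds matches to the letters searched for GAS and NF-κB sites. Capitals mark GGANNNTCC, the letters searched for NF-κB sites, at -186 to -178 from the start, and TTCNNNGAA, the letters searched for GAS elements, at -75 to -67. They do not overlap. Searched on both strands in the 250 bases before the start, GGANNNTCC occurred in 7.8% and TTCNNNGAA in 6.57% of 35116 RefSeq promoters. A match describes the letters only.

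ICAM1: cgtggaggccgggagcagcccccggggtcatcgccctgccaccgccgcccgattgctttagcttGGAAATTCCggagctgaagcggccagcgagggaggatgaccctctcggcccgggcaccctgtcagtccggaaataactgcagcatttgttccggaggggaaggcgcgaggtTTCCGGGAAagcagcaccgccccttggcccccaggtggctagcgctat

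ICAM1 stood at 72.9, 67.0 and 66.5 CPM in the 3 DMSO libraries and at 170.0, 215.8 and 223.2 CPM with IFNγ. The groups did not overlap, and the level was 2.94-fold higher with IFNγ (log2 fold change 1.56, SE 0.10, adjusted p = 1.02e-15). It was the only one of the 7 to pass the study's threshold of 1.5 on the log2 scale in that comparison, a size reached by 0.847% of all genes tested. ABBV-075 alone brought ICAM1 to 26.1, 37.3 and 43.0 CPM. Every one of these libraries lay below every DMSO library (log2 fold change -0.98, SE 0.18, adjusted p = 0.00107), and the fall was -0.82 after the GC correction.

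ABBV-744 alone left ICAM1 at 65.9, 76.4 and 63.5 CPM at 50 nM and at 64.6, 72.4 and 61.8 CPM at 500 nM. Both groups overlapped DMSO, and the 95% intervals of the log2 fold changes, -0.23 to 0.25 and -0.28 to 0.18, leave out a fall of the size seen with ABBV-075. In the presence of IFNγ the picture differed. ICAM1 was at 79.8, 105.8 and 103.4 CPM with IFNγ plus ABBV-075, at 110.2, 109.9 and 99.7 CPM with IFNγ plus ABBV-744 50 nM, and at 108.2, 109.7 and 99.0 CPM with IFNγ plus ABBV-744 500 nM. All 9 of these libraries lay below the 3 IFNγ libraries and above the 3 DMSO libraries, with log2 fold changes against IFNγ of -1.08 (SE 0.11), -0.91 (SE 0.10) and -0.96 (SE 0.10) and adjusted p = 1.67e-10, 1.32e-09 and 5.90e-09. After the GC correction these were -0.82, -0.57 and -0.66, all still called.

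Seen the other way, the rise of ICAM1 with IFNγ was 1.56 without inhibitor, 1.47 (SE 0.20, adjusted p = 0.00111) under ABBV-075, 0.64 (SE 0.11, adjusted p = 7.61e-05) under ABBV-744 50 nM and 0.67 (SE 0.11, adjusted p = 6.93e-05) under ABBV-744 500 nM, all on the log2 scale. With the GC correction these rises were 1.49, 1.49, 1.10 and 0.99, all called. Under ABBV-075, ICAM1 was the only one of the 7 called for IFNγ, where 1.05% of all genes were called. The corresponding background shares were 60.2% under ABBV-744 50 nM and 40.9% under ABBV-744 500 nM, against the 3.46% for IFNγ alone. The tests of the difference itself gave an interaction of -0.11 (95% interval -0.58 to 0.35, adjusted p = 0.935) for ABBV-075, where 0.0347% of all genes were called. They gave -0.95 (SE 0.15, adjusted p = 8.25e-06) for ABBV-744 50 nM and -0.89 (SE 0.15, adjusted p = 3.67e-05) for ABBV-744 500 nM, where 51.6% and 33.5% of all genes were called. With the GC correction the interactions for ABBV-744 shrank to -0.40 (adjusted p = 0.0186) and -0.49 (adjusted p = 0.00344), and what part the opposite GC slopes of the ABBV-744 libraries had in them was not tested beyond this correction. Every ICAM1 call named here kept its direction and its call when each library was left out in turn.

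**Figure D3:**
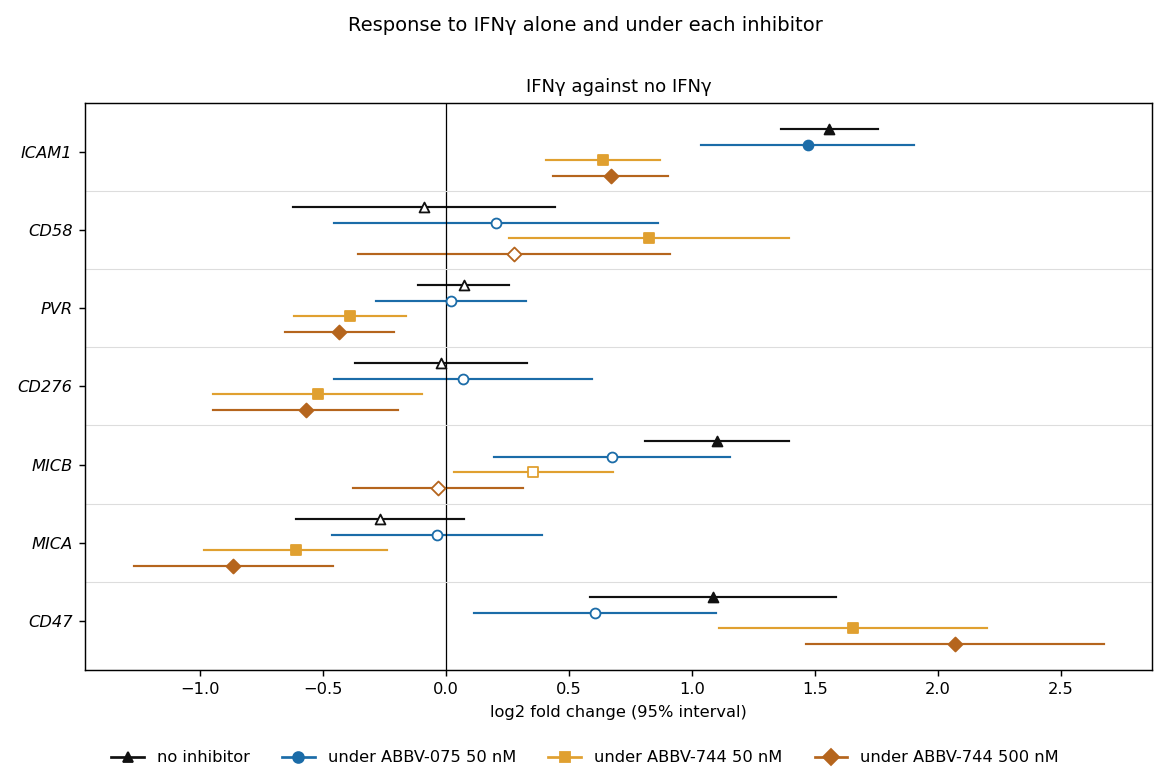
Log2 fold change with its 95% interval (horizontal axis) for IFNγ against the matching group without IFNγ, with no inhibitor and under each inhibitor treatment, for the 7 tested genes; filled symbols have an adjusted p of at most 0.05. For ICAM1 the values without inhibitor and under ABBV-075 lie near 1.5 and those under both doses of ABBV-744 near 0.65, while CD47 runs from 0.61 under ABBV-075 to 2.07 under ABBV-744 500 nM.

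CD58 is the ligand of CD2, an adhesion and costimulatory receptor of T cells and NK cells. It was low in all groups, with 13 to 44 reads per library and group means between 4.66 and 8.29 CPM. The DMSO libraries held 6.97, 9.77 and 6.44 CPM, those with ABBV-075 5.79, 4.02 and 5.41 CPM and those with ABBV-744 50 nM 3.88, 4.40 and 5.72 CPM. Both inhibitor groups lay below DMSO without overlap, but neither difference passed the test, at -0.63 (SE 0.27, adjusted p = 0.0857) and -0.73 (SE 0.29, adjusted p = 0.0782). With reads of both strands counted together both were called, at -0.85 (adjusted p = 0.0210) and -0.83 (adjusted p = 0.0417), and 9.19% of the reads over CD58 lay on the opposite strand. The GC correction also called the ABBV-075 value (-0.73, adjusted p = 0.0352) but not that of ABBV-744 (-0.57, adjusted p = 0.209). IFNγ alone gave -0.09 (95% interval -0.62 to 0.44).

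One comparison called CD58 in the fit on the gene's strand. With IFNγ plus ABBV-744 50 nM it stood at 6.99, 8.48 and 9.39 CPM, above all 3 libraries with ABBV-744 50 nM alone, a log2 fold change of 0.83 (SE 0.27, adjusted p = 0.0137). The call was lost after the GC correction (0.48, adjusted p = 0.190) and without replicate 3 of IFNγ plus ABBV-744 50 nM (adjusted p = 0.0584), and in DESeq2 (adjusted p = 0.0706). The interaction with IFNγ for ABBV-744 50 nM, 0.89 (SE 0.39, adjusted p = 0.0550), missed the test and fell short after the GC correction as well (0.52, adjusted p = 0.384). It was called with RLE size factors (0.95, adjusted p = 0.0423), library size only (1.07, adjusted p = 0.0280), at least 10 counts in every library (0.89, adjusted p = 0.0418) or both strands together (1.05, adjusted p = 0.0182). It was also called without DMSO replicate 3, ABBV-744 50 nM replicate 3, IFNγ replicate 3 or IFNγ plus ABBV-744 50 nM replicate 1 (adjusted p = 0.0365 to 0.0431).

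CD274 encodes PD-L1, which binds the inhibitory receptor PD-1 on T cells. The gene lies at chr9:5450503-5470566 on the plus strand (GRCh38), and the 211 bases before its first exon are printed from RefSeq (GRCh38.p14, plus strand, chr9:5450292-5450502) because they hold matches to all 3 motifs searched. Capitals mark 2 overlapping matches, on the opposite strand at -208 to -193, to the letters searched for IRF sites, GAAA followed by any 2 bases and GAAA. They mark TTCNNNGAA at -125 to -117 and GGANNNTCC at -111 to -103 as well. The IRF letters occurred in 3.02% of the RefSeq promoters. CD276 held 1 match to GGANNNTCC at -58 to -50, outside the bases that could be printed. The windows of the other 6 genes held none of the 3 motifs, which says only that these letters are not there. For CD276, CD47, LGALS9, MICA and MICB the window lay past the start of the annotated gene. The bases before their first annotated exon were therefore not searched.

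CD274: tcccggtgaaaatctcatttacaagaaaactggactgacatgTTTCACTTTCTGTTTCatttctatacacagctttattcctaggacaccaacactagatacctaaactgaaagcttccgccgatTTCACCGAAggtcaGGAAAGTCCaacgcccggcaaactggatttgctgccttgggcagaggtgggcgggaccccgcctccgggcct

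CD274 was at the edge of detection. The 12 libraries without IFNγ held 0 or 1 read each, with 0, 1 and 1 for DMSO, 1, 0 and 0 for ABBV-075, 0 in all 3 for ABBV-744 50 nM and 0, 1 and 0 for ABBV-744 500 nM. The 3 IFNγ libraries held 10, 12 and 8 reads. A count of up to 3 reads per library was taken as the floor. Against that floor the mean level of CD274 was at least 3.89-fold higher with IFNγ than with DMSO. Such folds, here and below, set the mean of the higher group against the level of 3 reads in the other. Single libraries can lie closer to the floor. Without the filter on low counts, edgeR gave this rise an adjusted p of 8.18e-05, and DESeq2 one of 0.0364.

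With IFNγ plus ABBV-075 the CD274 reads were 4, 5 and 3, all below the 3 IFNγ libraries. With IFNγ plus ABBV-744 they were 9, 5 and 10 at 50 nM and 5, 6 and 11 at 500 nM, overlapping IFNγ alone. The mean level with ABBV-075 was 0.383 times that of IFNγ alone, a log2 fold change of -1.34 (SE 0.54) that edgeR called only without the filter (adjusted p = 0.0334) and DESeq2 did not (adjusted p = 0.122). For ABBV-744 the log2 fold changes were -0.37 (SE 0.46, adjusted p = 0.566) and -0.30 (SE 0.46, adjusted p = 0.666). Relative to the matching inhibitor alone, IFNγ left CD274 at least 2.27-fold higher under ABBV-744 50 nM and at least 2.53-fold higher under 500 nM, and at least 1.31-fold higher under ABBV-075, where the unfiltered fit did not call it (adjusted p = 0.276). Of the 2 inhibitors at 50 nM with IFNγ, CD274 had 3 to 5 reads with ABBV-075 and 5 to 10 with ABBV-744, a difference of -0.90 (SE 0.57, adjusted p = 0.290) that was not detectable at this depth.

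LGALS9 encodes galectin-9, a lectin that binds TIM-3 among other receptors. Its reads were 2, 0 and 0 with DMSO, 0, 1 and 0 with ABBV-075, 0, 0 and 1 with ABBV-744 50 nM and 1, 0 and 0 with ABBV-744 500 nM. With IFNγ they were 8, 12 and 20, at least 5.18-fold higher than with DMSO (unfiltered edgeR adjusted p = 3.00e-07, DESeq2 adjusted p = 0.00879). In every group with IFNγ plus an inhibitor the gene was back at the floor, with 2, 1 and 1 reads for ABBV-075, 2, 1 and 1 for ABBV-744 50 nM and 2, 2 and 3 for ABBV-744 500 nM.

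These levels of LGALS9 were at least 4.59-fold, 4.72-fold and 4.03-fold lower than with IFNγ alone (unfiltered edgeR adjusted p = 1.94e-06, 2.69e-06 and 0.000268, DESeq2 adjusted p = 0.00143, 0.00129 and 0.0127). Of the 50-base windows of its longest transcript, 12.4% also occur in LGALS9B, LGALS9C or LGALS9DP, so its reads may be split with these near-identical copies.

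**Figure D4:**
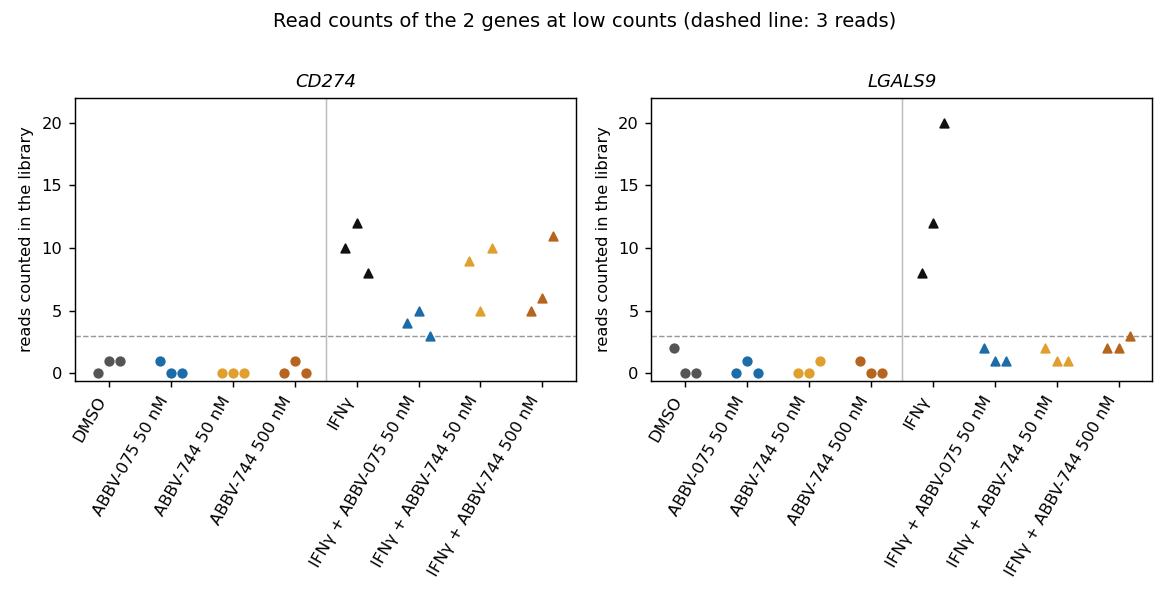
Number of reads counted on CD274 and LGALS9 in each of the 24 libraries (vertical axis), by treatment group, with a dashed line at 3 reads. Both genes reach 8 or more reads in all 3 libraries with IFNγ alone, CD274 keeps 3 to 11 reads with IFNγ plus an inhibitor, and LGALS9 has 1 to 3.

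CD276 encodes B7-H3, a B7-family ligand with inhibitory actions on T cells. It was at 19.0, 18.6 and 22.7 CPM with DMSO and at 10.4, 12.1 and 15.6 CPM with ABBV-075, with no overlap (log2 fold change -0.70, SE 0.20, adjusted p = 0.0169). The call was lost without DMSO replicate 3 (adjusted p = 0.0811) or ABBV-075 replicate 2 (adjusted p = 0.0684). IFNγ alone gave -0.02 (95% interval -0.37 to 0.33), with libraries at 14.7, 23.3 and 21.8 CPM. IFNγ plus ABBV-075 held 14.4, 9.52 and 15.1 CPM, overlapping IFNγ alone only in that the lowest IFNγ library (14.7 CPM) lay below the highest of these (15.1 CPM), and the log2 fold change was -0.62 (SE 0.21, adjusted p = 0.0108). That call was lost in DESeq2 (adjusted p = 0.0611) and without IFNγ replicate 2 (adjusted p = 0.0644) or IFNγ plus ABBV-075 replicate 2 (adjusted p = 0.0950).

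Under ABBV-744, CD276 was lower with IFNγ than without it, at -0.52 (SE 0.20, adjusted p = 0.0339) for 50 nM and -0.57 (SE 0.18, adjusted p = 0.0158) for 500 nM. The 50 nM groups overlapped, since replicate 2 of IFNγ plus ABBV-744 held 24.02 CPM beside 14.2 and 12.7, against 22.1, 26.7 and 24.1 CPM without IFNγ. The 500 nM groups did not, at 15.6, 14.5 and 16.6 against 24.7, 19.5 and 24.7 CPM. Neither call remained in DESeq2 (adjusted p = 0.138 and 0.0878) or after the GC correction (-0.04, adjusted p = 0.901, and -0.30, adjusted p = 0.217), and the 50 nM call was also lost with RLE size factors (adjusted p = 0.0542) or library size as the only scaling (adjusted p = 0.118). It was lost as well without ABBV-744 replicate 2 or 3 or IFNγ plus ABBV-744 replicate 1 or 3 (adjusted p = 0.0768 to 0.172), and the 500 nM call without ABBV-744 replicate 1 or 3 or IFNγ plus ABBV-744 replicate 2 (adjusted p = 0.0530 to 0.0733). Against IFNγ alone, CD276 with IFNγ plus ABBV-744 was not called at 50 nM (-0.22, SE 0.20, adjusted p = 0.389) or 500 nM (-0.37, SE 0.19, adjusted p = 0.124), except without IFNγ plus ABBV-744 50 nM replicate 2 (adjusted p = 0.0361) and without IFNγ replicate 1 (adjusted p = 0.0234). The interactions of CD276 did not pass the test, at -0.53 (adjusted p = 0.109) for 50 nM and -0.55 (adjusted p = 0.0942) for 500 nM. The 50 nM value passed without IFNγ replicate 1 or IFNγ plus ABBV-744 50 nM replicate 2 (adjusted p = 0.0327 and 0.0116). The 500 nM value passed without IFNγ replicate 1 (adjusted p = 0.0215). The falls with IFNγ under ABBV-744 were therefore not shown to differ from the response without inhibitor.

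CD47, which tells macrophages not to engulf a cell through SIRPα, was the member that rose with ABBV-075. Its libraries held 4.83, 5.77 and 4.53 CPM with DMSO (18 to 26 reads) and 11.3, 9.76 and 7.52 CPM with ABBV-075 (25 to 47 reads), without overlap. The log2 fold change was 0.90 (SE 0.25, adjusted p = 0.0138), and 0.52 after the GC correction, where it was no longer called (adjusted p = 0.0780). It was also lost in DESeq2 (adjusted p = 0.0602) and without DMSO replicate 1 or 3 or ABBV-075 replicate 1 (adjusted p = 0.0506 to 0.0594). The part of the GC trend in the rise was not tested beyond the correction.

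With IFNγ alone CD47 stood at 11.2, 10.0 and 11.2 CPM, above every DMSO library (log2 fold change 1.09, SE 0.25, adjusted p = 0.00423). This rise was 1.18 after the GC correction and was kept without each library in turn, and DESeq2 gave it an adjusted p of 0.0670. ABBV-744 alone left it at 3.58, 3.77 and 6.35 CPM at 50 nM and at 2.91, 2.24 and 3.45 CPM at 500 nM. The 500 nM libraries, with 7 to 12 reads, lay below all DMSO libraries, but the difference did not pass the test (-0.80, SE 0.34, adjusted p = 0.108).

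Together with IFNγ, CD47 was at 12.4, 17.1 and 13.6 CPM with ABBV-075, at 13.3, 12.7 and 17.1 CPM with ABBV-744 50 nM and at 14.6, 11.6 and 10.8 CPM with ABBV-744 500 nM. The first 2 of these groups lay above the IFNγ libraries without overlap, but none passed the test, with log2 fold changes of 0.40, 0.43 and 0.17 and adjusted p between 0.0744 and 0.563. With library size as the only scaling the value for ABBV-744 50 nM was called (0.48, adjusted p = 0.0456), and after the GC correction all 3 were below 0 (-0.13, -0.29 and -0.40, none called). Against the matching ABBV-744 group, IFNγ raised CD47 by 1.65 (SE 0.26, adjusted p = 2.91e-05) at 50 nM and by 2.07 (SE 0.29, adjusted p = 8.88e-06) at 500 nM on the log2 scale, both past the study's threshold, which 5.33% and 2.09% of all genes passed. The GC correction lowered these to 0.73 and 1.42, both still called. Under ABBV-075 the value was 0.61 (SE 0.23, adjusted p = 0.466). The interactions for ABBV-744 50 nM (0.54, SE 0.36, adjusted p = 0.212) and ABBV-075 (-0.52, SE 0.31, adjusted p = 0.772) were not called. The interaction for ABBV-744 500 nM, 0.99 (SE 0.38, adjusted p = 0.0455), was lost after the GC correction (0.24, adjusted p = 0.738), in DESeq2 (adjusted p = 0.115) and without the filter on low counts (adjusted p = 0.0726). It was also lost without 9 of the 12 libraries taken one at a time (adjusted p = 0.0525 to 0.127), namely DMSO replicates 1 and 2, ABBV-744 500 nM replicates 1 and 2, all 3 of IFNγ, and IFNγ plus ABBV-744 500 nM replicates 1 and 2.

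PVR (CD155) binds the inhibitory receptors TIGIT and CD96 and the activating receptor DNAM-1 on T cells and NK cells. It shares 19.4% of its exon bases with a gene annotated on the same strand that has no row in the counts. Reads from that gene may be counted as PVR. PVR lies at chr19:44643798-44666162 on the plus strand (GRCh38) and gave 212 to 499 reads per library. DMSO held 99.2, 110.8 and 109.5 CPM, and ABBV-075 alone brought it to 66.1, 62.0 and 76.4 CPM, without overlap (log2 fold change -0.67, SE 0.13, adjusted p = 0.00180). ABBV-744 gave 95.1, 105.6 and 114.0 CPM at 50 nM and 105.3, 110.9 and 103.5 CPM at 500 nM, overlapping DMSO, with 95% intervals of the log2 fold change from -0.23 to 0.21 and from -0.20 to 0.21.

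IFNγ alone left PVR at 105.3, 113.1 and 118.6 CPM (log2 fold change 0.07, 95% interval -0.11 to 0.26). The 9 libraries with IFNγ plus an inhibitor all lay below this range, at 71.3, 68.5 and 63.9 CPM with ABBV-075, 84.9, 75.4 and 79.0 CPM with ABBV-744 50 nM and 79.9, 79.8 and 77.8 CPM with ABBV-744 500 nM. The log2 fold changes against IFNγ were -0.73 (SE 0.11, adjusted p = 3.76e-07), -0.47 (SE 0.10, adjusted p = 0.000102) and -0.52 (SE 0.10, adjusted p = 0.000107). After the GC correction they were -0.45 (adjusted p = 1.12e-05), -0.20 (adjusted p = 0.0591, no longer called) and -0.24 (adjusted p = 0.0206).

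The interaction for PVR was -0.08 (95% interval -0.41 to 0.25) for ABBV-075, -0.49 (SE 0.14, adjusted p = 0.00416) for ABBV-744 50 nM and -0.50 (SE 0.13, adjusted p = 0.00437) for ABBV-744 500 nM. The called values did not remain after the GC correction (-0.06, adjusted p = 0.789, and -0.16, adjusted p = 0.375), and the first was lost with library size as the only scaling (-0.30, adjusted p = 0.0827). The GC correction also ended the call of lower PVR with IFNγ under ABBV-744, which was -0.39 (SE 0.11, adjusted p = 0.00520) at 50 nM and -0.43 (SE 0.11, adjusted p = 0.00294) at 500 nM before the correction and -0.04 and -0.14 after it.

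MICA and MICB are stress-induced relatives of HLA class I that activate NK cells and T cells through NKG2D. The neighbouring genes lie at chr6:31399784-31415315 and chr6:31494881-31511124 on the plus strand (GRCh38). They share 2.76% and 2.87% of their 50-base windows with each other or other transcripts, and over MICA 20.6% of the reads lay on the opposite strand. MICB was called for IFNγ alone and MICA was not, and the difference between the genes was not tested. MICB was at 19.3, 16.2 and 20.3 CPM with DMSO and at 41.7, 43.4 and 34.7 CPM with IFNγ, without overlap (log2 fold change 1.10, SE 0.14, adjusted p = 3.65e-07), while MICA went from 23.9, 17.3 and 21.0 CPM to 17.5, 17.4 and 16.5 CPM (log2 fold change -0.27, 95% interval -0.61 to 0.07).

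ABBV-075 alone brought MICB to 9.65, 12.6 and 14.4 CPM, below all DMSO libraries (log2 fold change -0.63, SE 0.20, adjusted p = 0.0270). This call was lost in DESeq2 (adjusted p = 0.0849) and without DMSO replicate 1 or 3 or ABBV-075 replicate 1 or 2 (adjusted p = 0.0735 to 0.104). MICA with ABBV-075 was at 19.1, 26.7 and 18.0 CPM, overlapping DMSO (0.02, 95% interval -0.41 to 0.45). ABBV-744 left MICB at 19.98, 25.8 and 20.3 CPM at 50 nM and at 25.3, 23.1 and 27.3 CPM at 500 nM. The 500 nM libraries lay above all DMSO libraries, with a log2 fold change of 0.45 (SE 0.16, adjusted p = 0.0582) that passed the test only without ABBV-744 500 nM replicate 2 (adjusted p = 0.0304).

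With IFNγ plus an inhibitor, MICB was at 15.9, 21.8 and 19.6 CPM for ABBV-075, 29.9, 28.5 and 25.7 CPM for ABBV-744 50 nM and 26.6, 27.6 and 20.3 CPM for ABBV-744 500 nM. All lay below the IFNγ libraries, and those with ABBV-075 overlapped the DMSO libraries. Against IFNγ the log2 fold changes were -1.08 (SE 0.16, adjusted p = 3.75e-07), -0.49 (SE 0.13, adjusted p = 0.00287) and -0.70 (SE 0.15, adjusted p = 0.000309). After the GC correction they were -0.82, -0.28 (adjusted p = 0.0864, no longer called) and -0.46 (adjusted p = 0.0110).

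The interaction for MICB was -0.78 (SE 0.21, adjusted p = 0.00333) for ABBV-744 50 nM and -1.13 (SE 0.22, adjusted p = 0.000169) for 500 nM, and -0.46 (SE 0.26, adjusted p = 0.769) for ABBV-075. The 500 nM value remained called after the GC correction (-0.85, adjusted p = 0.00277) and the 50 nM value did not (-0.46, adjusted p = 0.109). Under ABBV-744 500 nM, MICB with IFNγ (20.3 to 27.6 CPM) overlapped MICB without it (23.1 to 27.3 CPM), a log2 fold change of -0.03 (95% interval -0.38 to 0.31). Under ABBV-744 50 nM the difference of 0.36 (SE 0.15, adjusted p = 0.0536) missed the test and was called after the GC correction (0.61, adjusted p = 0.00185), with RLE size factors (adjusted p = 0.0356), with library size only (adjusted p = 0.0184) and without ABBV-744 50 nM replicate 2 (adjusted p = 0.00995). Under ABBV-075 the difference of 0.67 (SE 0.22, adjusted p = 0.342) was called in 2 alternatives, the fit on all 24 libraries (0.65, adjusted p = 0.0467) and the GC correction (0.76, adjusted p = 0.0452).

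MICA was called lower with IFNγ than without it under both doses of ABBV-744. It stood at 18.8, 21.1 and 24.8 CPM with ABBV-744 50 nM and at 15.4, 12.2 and 14.4 CPM with IFNγ added, and at 22.7, 21.1 and 26.7 CPM with 500 nM and 15.3, 13.9 and 9.84 CPM with IFNγ added. Neither pair of groups overlapped, with log2 fold changes of -0.61 (SE 0.18, adjusted p = 0.00657) and -0.86 (SE 0.19, adjusted p = 0.00131). After the GC correction these were -0.18 (adjusted p = 0.464) and -0.54 (adjusted p = 0.0310), and DESeq2 did not call the 50 nM difference (adjusted p = 0.0583). The interactions did not pass the test, at -0.37 (adjusted p = 0.203) and -0.59 (adjusted p = 0.0755, and 0.0458 without DMSO replicate 1 or 0.0478 without IFNγ plus ABBV-744 500 nM replicate 1), so these falls were not shown to differ from the response to IFNγ without inhibitor. With IFNγ plus ABBV-075, MICA held 19.6, 20.9 and 20.5 CPM, above all 3 IFNγ libraries, and the log2 fold change of 0.24 (SE 0.18, adjusted p = 0.251) was called only after the GC correction (0.51, adjusted p = 0.00648).

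The 2 inhibitors were compared directly at their shared dose of 50 nM. ABBV-075 is a BET inhibitor without the selectivity for the second bromodomain that defines ABBV-744. Without IFNγ, CD276 (-0.95, SE 0.20, adjusted p = 0.00515), ICAM1 (-0.97, SE 0.19, adjusted p = 0.00364), PVR (-0.63, SE 0.14, adjusted p = 0.00582) and MICB (-0.87, SE 0.21, adjusted p = 0.00943) were lower with ABBV-075, and CD47 (1.06, SE 0.30, adjusted p = 0.0177) was higher. Over all genes tested, 40.8% were called, and 34.3% after the GC correction. The GC correction left smaller values that were still called for CD276 (-0.59), ICAM1 (-0.63), PVR (-0.37) and MICB (-0.67), and CD47 was no longer called (0.37, adjusted p = 0.316). CD47 was also lost without replicate 1 or 2 of either group (adjusted p = 0.0559 to 0.0667). CD58 (0.12, 95% interval -0.53 to 0.77) and MICA (-0.03, 95% interval -0.48 to 0.42) were not called.

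With IFNγ the same comparison called 2 of the 7, where 33.7% of all genes were called. MICB was lower with ABBV-075 (-0.51, SE 0.16, adjusted p = 0.0105) and MICA higher (0.58, SE 0.18, adjusted p = 0.00874), both without overlap. ICAM1 differed by -0.10 (95% interval -0.31 to 0.11), PVR by -0.18 (-0.39 to 0.02), CD276 by -0.33 (-0.76 to 0.10) and CD47 by 0.05 (-0.34 to 0.44). DESeq2 called neither MICB (adjusted p = 0.0674) nor MICA (adjusted p = 0.0542), and the GC correction called CD276 (-0.54), PVR (-0.25) and ICAM1 (-0.24) as lower in addition. The MICB call was lost without replicate 1 of either group (adjusted p = 0.0566 to 0.0639) and the MICA call without replicate 2 of IFNγ plus ABBV-744 (adjusted p = 0.0527). None of the 7 genes was called between the 2 doses of ABBV-744 by edgeR's test, without IFNγ (0.0274% of all genes called) or with it (1.7%), and DESeq2 called none of those it gave a p. The widest 95% interval of these dose differences was that of CD47 without IFNγ, -1.44 to 0.13, and the narrowest that of ICAM1 with IFNγ, -0.17 to 0.20.

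**Figure D5:**
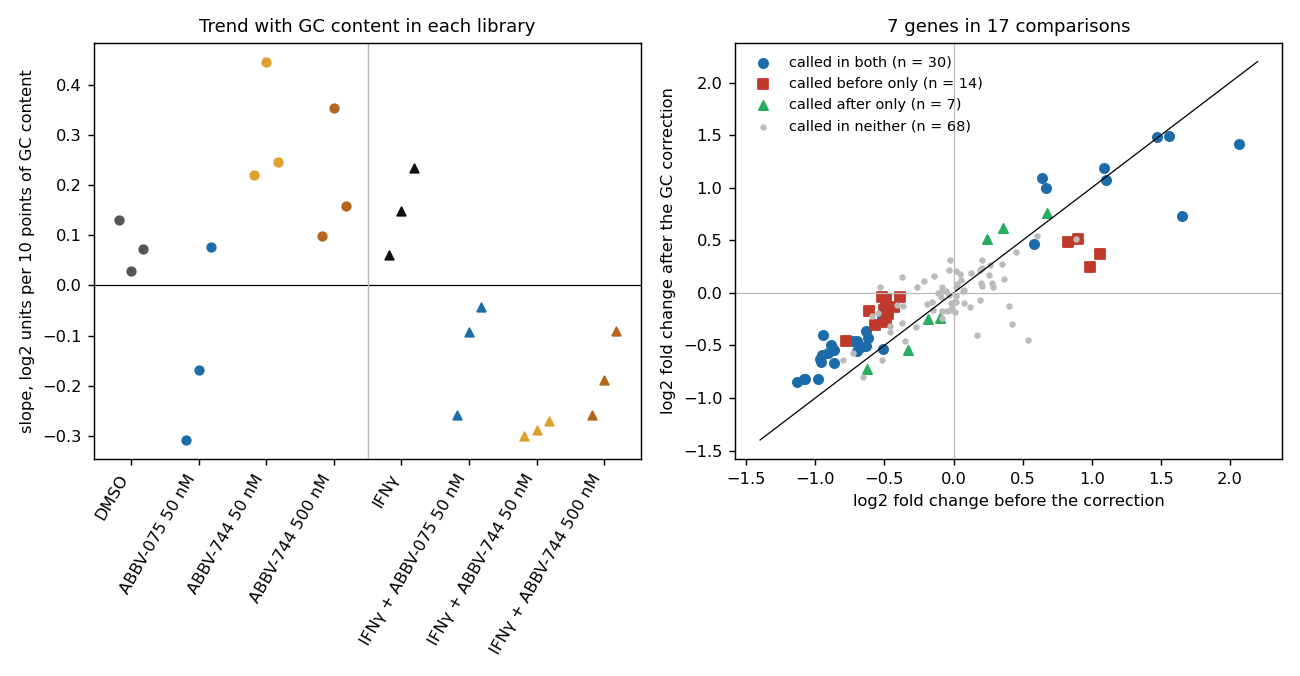
Left, slope of each library's log2 level on GC content (log2 units per 10 points of GC content) by treatment group, with the ABBV-744 libraries above 0 without IFNγ and below 0 with it. Right, log2 fold changes of the 7 genes in 17 comparisons before (horizontal axis) and after (vertical axis) the GC correction, of which 30 of 119 were called in both, 14 before only and 7 after only.

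Other ligands of T cell and NK cell receptors gave a wider view of the same surface. Of 41 listed genes, 17 never exceeded 3 reads in any library, among them PDCD1LG2, CD80, CD86 and the NKG2D ligands ULBP1 and ULBP2. With ABBV-075 alone, 13 of 20 tested were lower and 0 higher, where 19.6% and 19.8% of all genes were, and the median of the 20 was -1.05 on the log2 scale against 0.03 over all genes. The GC correction gave 13 lower and 2 higher, where 45.1% of all genes were called in either direction. TNFSF4 (OX40 ligand) fell from 15 to 31 reads to 0 to 3, at least 5.82-fold, ICAM2 by 1.95 and ICAM4 by 1.70 on the log2 scale. The butyrophilins BTN3A1, BTN3A2 and BTN3A3 fell by 1.53, 1.59 and 2.58. The value of BTN3A3 rests on few reads, 13 to 23 with DMSO and 0 to 8 with ABBV-075 (SE 0.71). ICAM2 (4 to 8) and ICAM4 (3 to 12) also had few reads with ABBV-075. ABBV-744 alone called 2 of 19 higher and 4 lower at 50 nM, and 2 of 18 higher and 8 lower at 500 nM, beside 18.9% and 15.3% of all genes called in either direction, with BTN3A1, BTN3A2, BTN3A3 and TNFSF4 lower at both doses. At 50 and 500 nM, BTN3A3 had only 3 to 7 and 4 to 6 reads, and TNFSF4 2 to 8 and 2 to 5.

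IFNγ alone raised 6 of 19 tested genes of that list and lowered none, beside 2.76% of all genes called higher. HLA-E, the ligand of the NK cell receptor NKG2A, rose by 3.501 (SE 0.08), BTN3A3 by 2.05 (SE 0.23) and TNFRSF14, the ligand of BTLA, by 2.03 (SE 0.16) on the log2 scale. IFNγ plus ABBV-075 against IFNγ lowered 11 of 19 and raised 2, where 28.4% of all genes were lower and 56.6% were called in either direction. The lower genes included BTN3A3 (-1.96), ICAM2 (-2.68, 23 to 28 reads against 3 to 6), ICAM3 (-1.58) and TNFSF4 (20 to 30 reads against 1 to 3, at least 8.21-fold lower). CLEC2D rose from 1 to 3 reads to 11 to 16, at least 4.15-fold. With ABBV-744 at 50 and 500 nM added to IFNγ, 11 of 18 were lower at each dose and 1 and 0 higher, where 24.3% and 22.8% of all genes were lower.

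Among 18 genes of IFNγ signalling and the NF-κB pathway, all 18 were tested with IFNγ. With IFNγ alone 4 rose and 0 fell, where 3.46% of all genes were called. The 4 included IRF1 (4.26, SE 0.12), the feedback inhibitor SOCS1 (1.53, SE 0.20) and STAT3 (0.70). After the GC correction the counts were 6 and 0, where 4.54% of all genes were called. With IFNγ plus ABBV-075 against IFNγ, 5 of 18 were higher and 6 lower, a share near the 56.6% called over all genes. IRF1 stood at 229 ± 21.4 CPM with IFNγ and at 224 ± 16.9, 220.1 ± 6.92 and 207 ± 16.8 CPM with ABBV-075, ABBV-744 50 nM and ABBV-744 500 nM added (SD, n = 3), and was called in none of the 3 comparisons. With ABBV-744 added to IFNγ, 4 of 18 were higher and 7 lower at 50 nM, and 3 higher and 5 lower at 500 nM, where 51.7% and 45.7% of all genes were called. With the GC correction these counts were 3 and 2 at 50 nM and 3 and 5 at 500 nM, where 34.5% and 36.8% of all genes were called.

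Of 13 genes whose products act on the member proteins, by stabilising, modifying or shedding them, 11 were tested with ABBV-075, with 3 higher and 2 lower, where 39.3% of all genes were called. B3GNT3, a glycosyltransferase known to act on PD-L1, fell by 3.05 (SE 0.39), while CMTM6, which protects PD-L1 from degradation, rose by 0.62 and ADAM10, a sheddase of MICA and other surface proteins, by 0.81, values that the GC correction brought to 0.25 and 0.37, both still called. CMTM6, ADAM10, CMTM4 and STAT3 are named after their values were seen, having passed the test at smaller folds than the 1.5 set for naming list genes. IFNγ alone lowered 1 of 11 (CMTM4, -0.46) and raised none, where 0.695% of all genes were called lower and 2.76% higher. With IFNγ plus ABBV-075 against IFNγ, 5 of 11 were higher and 2 lower, a share near the 56.6% called over all genes. B3GNT3 was again the one with the largest change among those called (-2.38, SE 0.34). After the GC correction the counts were 4 and 3, where 55.9% of all genes were called. With ABBV-744 added to IFNγ, B3GNT3 was lower by 1.09 and 1.13 and ADAM10 higher by 1.203 and 1.10 at 50 and 500 nM, the ADAM10 values becoming 0.41 and 0.46 after the GC correction.

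Across the 8 group means of log2 CPM, the genes with the most similar pattern to ICAM1 among 4101 searched were TAPBPL (Pearson r = 0.984) and BST2 (r = 0.982). For MICB they were TRIM25 (r = 0.9751) and IFITM2 (r = 0.967), and for CD47 DYNLT3 (r = 0.967) and DEPDC4 (r = 0.965). These correlations describe 8 points that share their libraries, and with a prior count of 0.5 the genes for ICAM1 and MICB were the same and DEPDC4 gave way to ZNF860 for CD47.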

How the data were processed

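Total RNA of HepG2 cells was depleted of ribosomal RNA, made into strand-specific libraries and sequenced by the authors. The deposited files hold raw read counts per gene symbol on either strand. The submitters' processing notes name CASAVA 1.8.2, Trimmomatic 0.33, STAR 2.7.1 and DESeq2, with the build GRCh38, and which gene models were counted is not given in the sources used here. Only sense-strand counts entered the tests (98.3% to 98.5% of reads on genes). Rows that name no gene held 83.2% to 88.0% of reads and stayed out of library sizes and tests.

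Each of 14 pairwise comparisons and 3 interactions was fitted with edgeR 4.0.16 (R 4.3.3; filterByExpr with a minimum count of 10, TMM scaling, quasi-likelihood F test, Benjamini-Hochberg adjustment over all genes tested). The study's limit on the adjusted p (0.05) decided the calls, and its further limit of 1.5 on the size of the log2 fold change is stated where it was passed. The alternatives were DESeq2 1.42.0, RLE size factors, library size only, no filter, at least 10 counts in every library, 1 fit of all 24 libraries, the replicate number as a block, both strands together, a lowess correction for GC content (span 0.3) and leaving out each library. Lengths and GC content came from GENCODE (GRCh38), which matched 24545 of the symbols. Scripts were tested on simulated counts. List genes were named where called with a change of 1.5 or more on the log2 scale in either direction, at most 6 per list and comparison. This rule covered ABBV-075 against DMSO, IFNγ against DMSO, and IFNγ plus ABBV-075 against IFNγ. B3GNT3, ADAM10, BTN3A1, BTN3A2, BTN3A3 and TNFSF4 are also given for ABBV-744 groups, outside this rule. The members and lists were chosen with earlier results of these data known. A gene of the IFNγ signalling list is not reported here by name.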

Additional observations from a re-analysis of the deposited data

Results flagged for a closer look

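For 7 values the response to IFNγ under ABBV-744 differed from the response without inhibitor by the interaction test itself (edgeR, adjusted over all genes). At 50 nM the interactions were -0.95 for ICAM1, -0.78 for MICB and -0.49 for PVR on the log2 scale, where 51.6% of all genes were called. At 500 nM they were -0.89 for ICAM1, -1.13 for MICB, -0.5 for PVR and 0.99 for CD47, where 33.5% of all genes were called. With the GC correction ICAM1 stayed called at both doses and MICB at 500 nM. Over all genes, that correction left 20.4% called at 50 nM and 16.7% at 500 nM. The cause of the differences was not tested.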

How the results depend on the processing

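Of 1900 values of single genes recomputed under an alternative, 1699 kept their direction and their side of the threshold, 103 changed sign without being called in either fit, 65 lost the call, 33 gained it and 0 changed sign with a call in either fit. Of the 103, 61 came from leaving out a library and 21 from the GC correction, among them CD47 with IFNγ plus each inhibitor against IFNγ. The GC correction changed most in proportion, with 14 of 119 values lost and 7 gained. It left 1 of 3 genes called (ICAM1) for IFNγ with ABBV-744 50 nM against IFNγ, 2 of 6 for IFNγ with ABBV-744 50 nM against ABBV-744 50 nM (3 with MICB, which it added), 3 of 5 for IFNγ with ABBV-744 500 nM against ABBV-744 500 nM, 1 of 3 for the interaction with ABBV-744 50 nM and 2 of 4 for that with 500 nM. Over all genes, the shares called in these comparisons after the correction were 34.5%, 32.6%, 28.2%, 20.4% and 16.7%, in that order. Before it they were 51.7%, 60.2%, 40.9%, 51.6% and 33.5%. The correction raised the count from 1 to 2 for IFNγ with ABBV-075 50 nM against ABBV-075 50 nM (2.08% of all genes called), as did the fit of all 24 libraries (2). It also raised the count from 2 to 5 for IFNγ with ABBV-075 50 nM against IFNγ with ABBV-744 50 nM (34.6% of all genes called), where DESeq2 called 0. DESeq2 called 3 rather than 5 for ABBV-075 50 nM against DMSO. Both strands together called 1 (CD58) rather than 0 for ABBV-744 50 nM against DMSO, and no filter called 5 rather than 3 for IFNγ against DMSO, by adding CD274 and LGALS9. The cause of these changes was not tested. For alternatives other than the GC correction the share over all genes is not given here, so their counts describe the members only. Leaving out 1 library gave 2 to 5 genes for ABBV-075 50 nM against DMSO, 0 to 0 and 0 to 1 for ABBV-744 50 nM and ABBV-744 500 nM against DMSO, 3 to 4 for IFNγ against DMSO, and 3 to 5 for IFNγ with each of the 3 inhibitor treatments against IFNγ. It gave 1 to 1, 4 to 6 and 4 to 5 for IFNγ under ABBV-075, ABBV-744 50 nM and ABBV-744 500 nM, 0 to 0, 3 to 4 and 3 to 4 for the interactions in that order, 4 to 5 between the inhibitors at 50 nM, 1 to 2 for the same with IFNγ, and 0 to 0 for both dose pairs. Same-numbered libraries did not deviate together throughout (correlations from -0.181 to 0.336), so the numbers were not treated as pairs. Between the 2 doses of ABBV-744 without IFNγ they were 0.25, 0.33 and 0.06, against a mean of -0.11 for libraries of other numbers. The replicate block changed 1 of 119 calls, the CD47 interaction with ABBV-744 500 nM (0.99, adjusted p = 0.0536). Depth limits CD274, LGALS9, CD58 and CD47, with at most 12, 20, 44 and 63 reads in any library.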
